A study of Homo sapiens with 6 samples.

Results

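The signal recognition particle (SRP) genes comprised 8 of the 63190 gene identifiers in the deposited RNA-seq table: the 7SL RNA genes RN7SL1 and RN7SL2 and the protein genes SRP9, SRP14, SRP19, SRP54, SRP68 and SRP72. They were chosen by name, without the pseudogene copies of 7SL, and each was the sum over all of its transcripts, 52 in all. The libraries came from total RNA of HEK293, a human embryonic kidney cell line, in the T-Rex form that carries a doxycycline-inducible expression system. The D391N group (3 libraries) overexpressed DIS3L2 D391N, a catalytically inactive form of the cytoplasmic 3′-5′ exoribonuclease DIS3L2, from a stably integrated construct induced with doxycycline. The control group (3 libraries) was made of the same parental type of cell without that construct, and whether it received doxycycline is not given in the sources used here. With 1 line in each group, the construct and the line that carries it cannot be told apart. Nothing in the labels says that replicates came from separate cultures, so p-values measure only the spread between these libraries. The limma test used here also draws the spread of a gene toward that of other genes of similar level.

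The SRP is the ribonucleoprotein that recognizes signal peptides as they emerge from the ribosome and brings the ribosome to the endoplasmic reticulum. Its scaffold is the 7SL RNA, which RNA polymerase III transcribes. SRP9 and SRP14 form a heterodimer on the Alu domain of 7SL and slow elongation, whereas SRP19, SRP54, SRP68 and SRP72 bind the S domain. 7SL also gave rise to the Alu repeats and to many pseudogene copies in the human genome.

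RN7SL1 and RN7SL2 are near-identical copies on chromosome 14, and the genome holds many pseudogene copies of them. The values of the single copies therefore depend on how the authors' program divided shared reads, and the sum over both copies is given beside them.

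DIS3L2 itself was the check on the labels. Its level was 369, 467 and 512 RPKM (reads per kilobase of transcript, scaled to the mapped reads of the library) in D391N replicates 1, 2 and 3 and 11.8, 12.9 and 14.6 RPKM in the controls. It rose by 5.08 on the log2 scale (SE 0.18, limma adjusted p = 2.68e-04). The HEK293 markers VIM, KRT8, KRT18 and CDH2 lay between 26.5 and 180 RPKM, PAX2 between 1.31 and 1.93 RPKM, and NEFM was under 1 RPKM. In VIM, KRT8 and KRT18 each D391N library lay below each control, as in 20.7% of all genes. Their log2 differences were -0.43, -0.69 and -0.27 (limma adjusted p = 0.21, 0.091 and 0.374). The groups of CDH2 and PAX2 overlapped. Of 6 markers of other cell types, CD3E, INS and MYH7 were at most 0.342 RPKM, while ALB, PTPRC and HBB reached 1.13, 1.77 and 7.12 RPKM. Estimated sequencing depth ranged from 0.621 to 1 relative to control replicate 2. D391N replicate 1 stood apart from the other D391N libraries: with all libraries 29 of 20714 genes passed the test (adjusted p under 0.05), and without that library 2261 did. Transcripts under 200 nt made up 2.43%, 0.342% and 1.52% of the signal in D391N replicates 1, 2 and 3, against 2.89% to 3.18% in the controls.

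Both 7SL genes were among the most abundant RNAs in every library, and every D391N value of both lay below every control value, but neither difference passed the test across all genes. In bulk RNA, fewer cells holding an RNA and less of it per cell cannot be told apart. RN7SL1 (ENSG00000258486, GRCh38 chr14:49586580-49586878) measured 17872, 9199 and 10325 RPKM in D391N replicates 1 to 3 and 20627, 22218 and 19638 RPKM in control replicates 1 to 3. D391N replicate 1 lay nearest to the controls, and the groups did not overlap. The difference of RN7SL1 was -0.80 on the log2 scale (SE 0.64, 95% CI -2.33 to 0.73, limma adjusted p = 0.49). The width of this interval depended on the variance model. At the same difference, the SE was 0.28 without limma's trend of spread over level (limma adjusted p = 0.184). It was 0.32 with a minimum mean of 0.1 RPKM (limma adjusted p = 0.302). After quantile normalization, which sets each level by its rank within the library, the difference was 0.038, so that its sign was not stable to the scaling. That setting cannot show a change that leaves the rank of a gene in place.

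RN7SL2 (ENSG00000274012, GRCh38 chr14:49862551-49862849) measured 8622, 3550 and 5123 RPKM in the D391N libraries and 15587, 17372 and 13534 RPKM in the controls. Here too the groups did not overlap and D391N replicate 1 was the highest of its group. The difference was -1.52 on the log2 scale (SE 0.56, 95% CI -2.86 to -0.18, limma unadjusted p = 0.032, adjusted p = 0.185). Without the trend its SE was 0.34 (limma adjusted p = 0.111). Without D391N replicate 1 the difference was -1.85 (SE 0.42, limma adjusted p = 0.046). This was the only one of 16 alternatives in which a member passed the gene-level threshold, and 2261 of 20714 genes passed in it. After quantile normalization the difference was -0.30 (limma adjusted p = 0.83).

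The ranks of the 7SL genes among all genes show how close they lay to the top of each library. RN7SL1 ranked between 3 and 8 over the 6 libraries and RN7SL2 between 7 and 15. The estimation error given by the authors' program was small beside the spread between libraries, as the posterior SD of the natural log level was at most 0.0051 for RN7SL1 and 0.011 for RN7SL2. The length used for the RN7SL1 transcript (ENST00000553637) is not given in the sources used here, so its level relative to RN7SL2 (ENST00000490232, 297 nt) depends on a length that was not checked.

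None of the 8 members passed the gene-level test, for which 0.14% of all genes did, and 1 (RN7SL2) had an unadjusted p under 0.05, against 22.7% of all genes. Non-overlapping groups were common in these libraries: each D391N library was below each control for 20.7% of genes and above for 10.5%, against 2 of 8 members below (both 7SL genes) and 0 of 8 above. A log2 difference at least as low as that of RN7SL1 was found in 13% of genes, and one at least as low as that of RN7SL2 in 4.81%. Among the 1146 genes with a mean of at least 100 RPKM these shares were 23.8% and 15.6%.

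**Figure D1:**
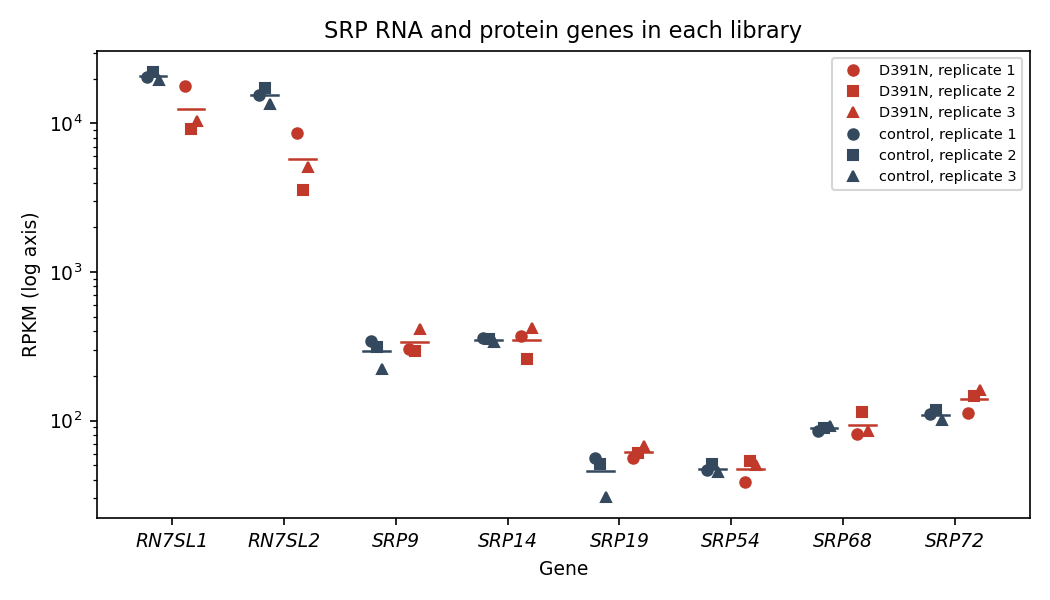
RPKM (log axis) of the 8 SRP genes in each of the 3 control and 3 D391N libraries, with the mean of each group as a line and the replicate number as the symbol. The 7SL genes stand apart from the protein genes, and of the 8 only RN7SL1 and RN7SL2 have groups that do not overlap.

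The 6 protein genes lay between 30.8 and 421 RPKM, and their D391N and control libraries overlapped in every case. SRP9 and SRP14, the pair on the Alu domain, were the most abundant. SRP14 measured 370, 258 and 421 RPKM in the D391N libraries and 361, 352 and 336 RPKM in the controls, a log2 difference of -0.029 (95% CI -0.57 to 0.52, limma adjusted p = 0.958). D391N replicate 2 was the lowest and D391N replicate 3 the highest of all 6 libraries. SRP9 measured 304, 295 and 416 RPKM against 345, 312 and 222 RPKM, a log2 difference of 0.21 (95% CI -0.37 to 0.80, limma adjusted p = 0.64). Control replicate 3 was the lowest library for SRP9.

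Of the S domain proteins, SRP72, which with SRP68 forms a heterodimer, had D391N levels of 112, 146 and 161 RPKM and control levels of 110, 117 and 101 RPKM. D391N replicates 2 and 3 were above all controls and D391N replicate 1 lay within them, and the log2 difference was 0.34 (95% CI -0.098 to 0.78, limma adjusted p = 0.311). SRP68 measured 81.7, 115 and 85 RPKM against 84.7, 89.7 and 91.3 RPKM, with a log2 difference of 0.066 (95% CI -0.35 to 0.48, limma adjusted p = 0.852). In SRP68 only D391N replicate 2 was above the controls.

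SRP54, the GTPase that binds the signal peptide and the SRP receptor, measured 38.8, 53.2 and 50.3 RPKM in the D391N libraries and 46.5, 50.8 and 45.2 RPKM in the controls. Its log2 difference was -0.012 (95% CI -0.41 to 0.38, limma adjusted p = 0.974). SRP19, which helps SRP54 to bind 7SL, measured 55.8, 60.6 and 67.8 RPKM against 55.9, 50.8 and 30.8 RPKM. D391N replicate 1 of SRP19 lay inside the control range, control replicate 3 was the lowest, and the log2 difference was 0.46 (95% CI -0.12 to 1.05, limma adjusted p = 0.304). The signs of the differences of SRP14, SRP54 and SRP68 turned under some of the alternatives, whereas those of SRP9, SRP19 and SRP72 were positive in all 16. Their size depended on single libraries: SRP9 was 0.057 without D391N replicate 3, and without control replicate 3 SRP9 was 0.026 and SRP19 0.20.

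**Figure D2:**
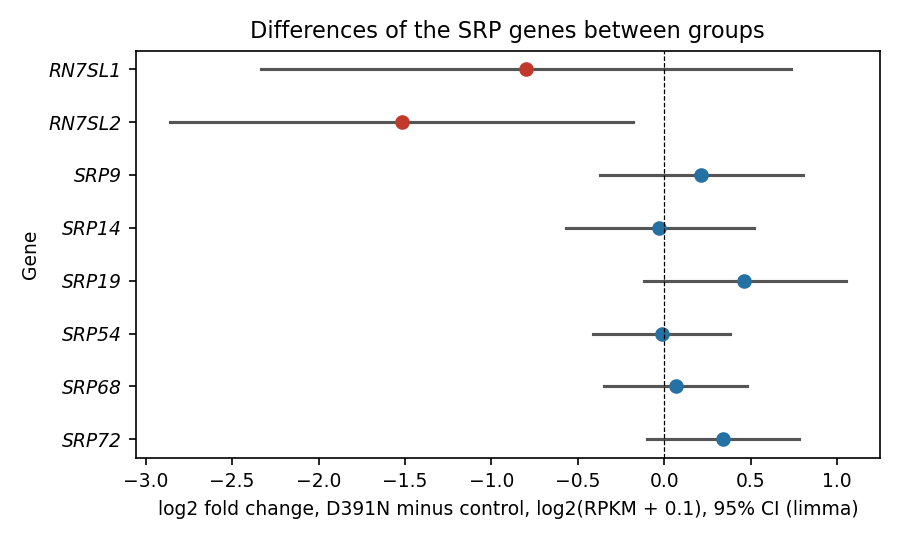
Log2 fold change (D391N minus control, on log2(RPKM + 0.1)) of the 8 SRP genes with limma 95% confidence intervals, 7SL genes in red and protein genes in blue. Only the interval of RN7SL2 (-2.86 to -0.18) leaves out 0, and none of the 8 passed the adjusted threshold.

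Levels per length gave nearly the same order of members in both groups. From the highest mean down, the order in the controls was RN7SL1, RN7SL2, SRP14, SRP9, SRP72, SRP68, SRP54 and SRP19. The ranges of SRP14 and SRP9 overlapped there, as did those of SRP54 and SRP19, and the other neighbours did not overlap. In the D391N libraries SRP19 came before SRP54, without overlap (55.8 to 67.8 RPKM against 38.8 to 53.2 RPKM), while SRP14 overlapped SRP9 and SRP72 overlapped SRP68.

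Summed over both copies, 7SL was 26494, 12749 and 15448 RPKM in D391N replicates 1 to 3 and 36215, 39590 and 33171 RPKM in control replicates 1 to 3. The group means were 18231 ± 7283 (SD, n = 3) and 36325 ± 3211 RPKM, and the log2 difference was -1.06, or 2.09-fold lower in D391N. Summed RPKM of the whole library was also lower in D391N: 1196017, 741119 and 890783, against 1285538, 1205485 and 1236040 in the controls. As a share of that total, 7SL was 2.22%, 1.72% and 1.73% in D391N replicates 1 to 3. In control replicates 1 to 3 it was 2.82%, 3.28% and 2.68% (means 1.89% in D391N and 2.93% in controls). The geometric mean of the 6 protein genes was 114, 127 and 142 RPKM in the D391N libraries and 120, 120 and 99.3 RPKM in the controls, overlapping groups with a log2 difference of 0.17. 7SL therefore exceeded the protein genes by 232-, 101- and 109-fold in the D391N libraries and by 301-, 330- and 334-fold in the controls. The log2 ratio of 7SL to the proteins differed by -1.24 between groups (7.09 ± 0.66 against 8.33 ± 0.082, SD, n = 3), and its groups did not overlap. These summaries over the members carry no p-value. The 7SL sum was lowest in the 2 D391N libraries with the smallest share of transcripts under 200 nt (0.342% and 1.52%), and the part of that share in the difference was not tested. Under quantile normalization the difference of the 7SL sum was -0.079 and that of the ratio -0.35.

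The 2 copies did not differ equally between the groups. RN7SL2 made up 32.5%, 27.8% and 33.2% of the 7SL sum in the D391N libraries, against 43%, 43.9% and 40.8% in control libraries. All 3 D391N libraries, replicate 1 included, were below all controls. With 3 libraries against 3 and shared reads between the copies, this is given as a description.

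**Figure D3:**
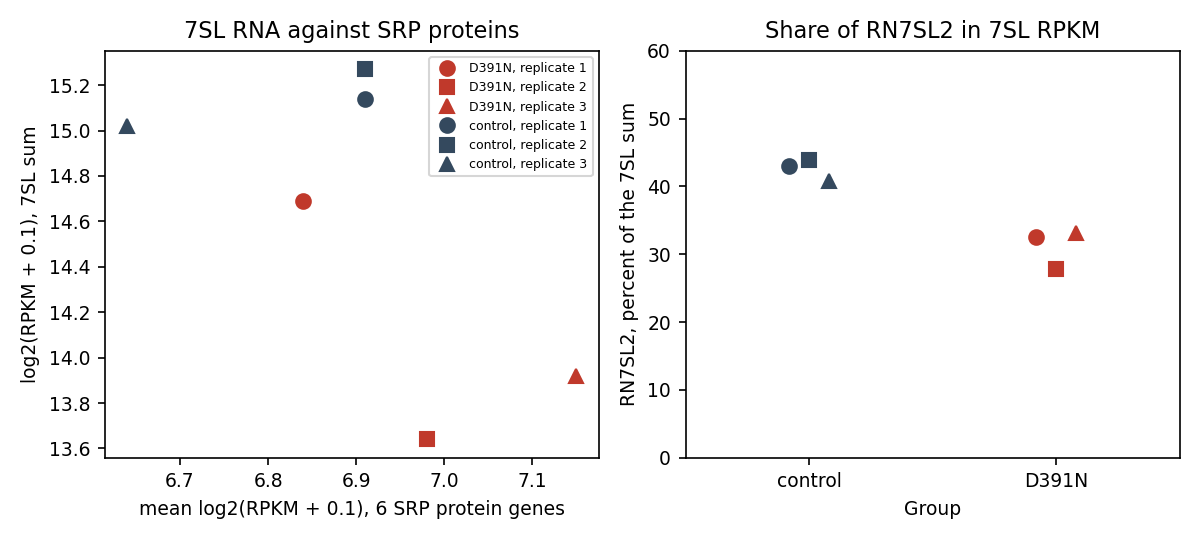
Left, log2 level of the 7SL sum against the mean log2 level of the 6 SRP protein genes in each library (log2(RPKM + 0.1)). Right, RN7SL2 as a percentage of the 7SL sum, 27.8% to 33.2% in D391N and 40.8% to 43.9% in control libraries.

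The 7SL copies with pseudogene symbols held little of the family's signal. Over 635 RN7SL symbols the sum was 29811, 14779 and 16623 RPKM in the D391N libraries and 38862, 42445 and 36290 RPKM in the controls. RN7SL1 and RN7SL2 made up between 86.3% and 93.3% of that sum, and these shares overlapped between the groups. The 1102 tested transcripts of 250 to 350 nt without an RN7SL symbol, close to 7SL in length, had a median log2 difference of -0.20. In 15.6% of them all D391N values lay below all control values, and in 8.35% above. Among the 166 with a mean log2 level of at least that of 10 RPKM, these shares were 19.9% and 10.2%. Over all tested transcripts 25.8% had groups that did not overlap in either direction.

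At the transcript level 38 of the 52 transcripts of the members had a mean of at least 1 RPKM and were tested. None passed, against 0.0604% of all 54671 transcripts tested. Among the 36 tested transcripts of protein genes 8 had an unadjusted p under 0.05, against 17.6% of all transcripts, and 7 had groups that did not overlap, against 25.8%. The transcript with the highest mean of each protein gene was annotated as protein coding. The one of SRP54 (ENST00000555557) was 20.4, 24 and 20.2 RPKM in the D391N libraries and 26.7, 27.7 and 26.6 RPKM in the controls. Its groups did not overlap, although those of the gene did, and its log2 difference was -0.33 (limma adjusted p = 0.449). Not all of a gene sum came from coding transcripts. In SRP68, ENST00000591272, annotated as nonsense-mediated decay, held on average 33.2% in D391N and 29.2% in control libraries. The retained intron transcript ENST00000590833 of SRP68 held 10.6% and 20.2%. In SRP14, ENST00000558527, annotated without a coding sequence, held 27.5% and 25%.

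Transcripts of SRP19 differed in both directions. Its retained intron transcript ENST00000504696 was 7.11, 0.505 and 0.379 RPKM in the D391N libraries and 19.7, 17.1 and 7.39 RPKM in the controls, with a log2 difference of -3.42 (SE 1.04, limma adjusted p = 0.197). It made up on average 4.71% of SRP19 in D391N and 30.9% in control libraries. The coding transcript ENST00000515463 was 12.9, 4.56 and 31.7 RPKM against 5.08, 2.07 and 0.967 RPKM, with a log2 difference of 2.44 (SE 0.82, limma adjusted p = 0.22). A further retained intron transcript, ENST00000506987, was 3.6, 4.62 and 2.23 RPKM in the D391N libraries and 1.77, 0.932 and 0.437 RPKM in the controls, without overlap (log2 difference 1.77, limma adjusted p = 0.194). The posterior SD of the natural log level of ENST00000504696 and ENST00000515463 reached 1.3 in at least 1 library.

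Minor transcripts of the other proteins also had values in both directions. The SRP14 transcript ENST00000559475, annotated without a coding sequence, was 4.95, 21.4 and 17.1 RPKM in the D391N libraries and 5.72, 2.69 and 4.02 RPKM in the controls (log2 difference 1.60, SE 0.59, limma adjusted p = 0.244), and D391N replicate 1 lay among the controls. The SRP9 transcript ENST00000619790 was 0.207, 1.63 and 1.36 RPKM in the D391N libraries and 6.4, 7.37 and 7.27 RPKM in the controls (log2 difference -2.95, SE 0.66, limma adjusted p = 0.136), on average 2.5% of SRP9 in the controls. The posterior SD of its natural log level reached 1.2 in at least 1 library. The main SRP9 transcript, ENST00000304786, held 82.7% of the gene in D391N and 75.4% in control libraries on average. The retained intron transcript ENST00000507126 of SRP72 was 6.3, 4.69 and 7.08 RPKM against 9.64, 10.9 and 8.38 RPKM (log2 difference -0.68, limma adjusted p = 0.256). The retained intron transcript ENST00000588736 of SRP68 was 2.08, 1.03 and 0.945 RPKM against 2.91, 2.53 and 2.97 RPKM (log2 difference -1.08, limma adjusted p = 0.223). Of the 11 tested retained intron transcripts of the protein genes, 6 had lower and 5 higher values in D391N, and the higher ones included ENST00000558243 of SRP14, ENST00000587864 of SRP68 (1.21 on the log2 scale) and ENST00000553923 of SRP54 (0.63 on the log2 scale). The posterior SD of the natural log level of ENST00000553923 reached 1 in at least 1 library.

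**Figure D4:**
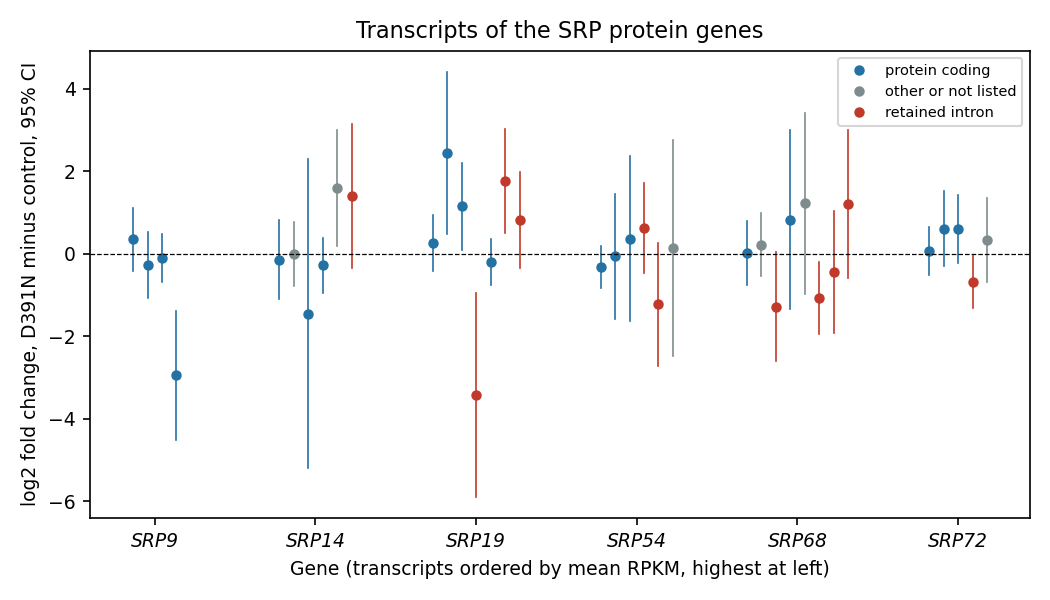
Log2 fold change (D391N minus control) with limma 95% confidence intervals for the 36 tested transcripts of the 6 SRP protein genes, colored by annotated biotype and ordered by mean RPKM within each gene. None passed the adjusted threshold, and intervals are wide for transcripts of low level.

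The genes that act with the SRP were described from fixed lists. None of the 10 genes of the SRP receptor and Sec61 translocon passed the test, against 0.14% of all genes. Of the 10, 5 had lower and 5 higher values in D391N, and the median log2 difference was 0.056 against -0.09 over all genes. Each D391N library lay below each control in 0 of them and above in 2, against 20.7% and 10.5% of all genes. SEC63, a partner of the Sec61 channel, was 174, 230 and 190 RPKM in the D391N libraries and 110, 128 and 130 RPKM in the controls (log2 difference 0.69, limma adjusted p = 0.113). SEC62, which works with SEC63, had a log2 difference of 0.63 (limma adjusted p = 0.2), and SEC61G, the small channel subunit, -0.46 (limma adjusted p = 0.532). Without D391N replicate 1, SEC63 (0.77, limma adjusted p = 0.042) and SEC62 (0.89, limma adjusted p = 0.027) were among the 2261 of 20714 genes that passed the threshold. SEC61G was -0.039 when D391N replicate 2 was left out and -0.83 when D391N replicate 3 was. The SRP receptor subunits SRPRA and SRPRB, named here after their values were seen, differed by 0.24 and 0.18 on the log2 scale (limma adjusted p = 0.499 and 0.629).

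Of 19 genes that process chains at the translocon none passed, against 0.14% of all genes, and the median log2 difference was -0.11. Each D391N library lay below each control in 4 of the 19 and above in 1, against 20.7% and 10.5% of all genes. Their 3 most abundant genes were OSTC, an oligosaccharyltransferase subunit, at 0.79 (limma adjusted p = 0.124), SEC11A, the signal peptidase subunit, at -0.11, and RPN2 at -0.13 on the log2 scale. OSTC was 1.01 (limma adjusted p = 0.021) without D391N replicate 1, where 2261 of 20714 genes passed. Of 9 genes of other targeting routes none passed, 8 had lower values, and the median log2 difference was -0.38. In 3 of the 9 each D391N library lay below each control, and in 0 above. NACA and BTF3, which form the nascent polypeptide-associated complex at the ribosome, differed by -0.027 and -0.38, and SGTA, a tail-anchored protein chaperone, by -0.66 (limma adjusted p = 0.173). With D391N replicate 1 left out BTF3 was -0.71, and with D391N replicate 2 left out BTF3 was -0.079 and SGTA -0.42.

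All 8 other RNA polymerase III RNAs tested had lower values in D391N. None passed, against 0.14% of all genes, and their median log2 difference was -1.59, against -0.09 over all genes. The groups of 3 of them did not overlap, against the 20.7% of all genes with each D391N library below each control. Transcripts under 200 nt held less of the signal in D391N replicates 1 to 3 (2.43%, 0.342% and 1.52%) than in the controls (2.89% to 3.18%). The share counts any of these RNAs that are under 200 nt themselves, so it is not independent of their values. The part of that share in these differences was not tested. RPPH1, RNY5 and RN7SL3 matched no identifier in the table, and the identifier matched to RMRP, one of the 8, was at 2.24 to 19 RPKM and may not hold all reads of that gene. RN7SK, the scaffold RNA that holds P-TEFb, was 5701, 1677 and 2970 RPKM in the D391N libraries and 13976, 23331 and 13758 RPKM in the controls (log2 difference -2.43, SE 0.61, limma adjusted p = 0.113). Without D391N replicate 1, where 2261 of 20714 genes passed, it was -2.89 (limma adjusted p = 0.027). After quantile normalization it was -1.51 (limma adjusted p = 0.279). The Y RNAs RNY1 and RNY3 differed by -1.61 and -1.95 (limma adjusted p = 0.348 and 0.304), and D391N replicate 1 lay above every control in RNY1 and among them in RNY3. Without D391N replicate 1, RNY1 was -2.74 (limma adjusted p = 0.025) and RNY3 -3.08 (limma adjusted p = 0.041), and without D391N replicate 2 they were -0.82 and -0.83. As in 7SL, D391N replicate 1 was the highest of its group in RN7SK, RNY1 and RNY3.

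The 5 genes with a pattern most like the 7SL sum were taken by Pearson's r over the 6 libraries among 8616 genes with a mean of at least 10 RPKM. They were ENSG00000280018, which has no symbol here (r = 0.998), the ribosomal protein gene RPS14 (0.997), the H/ACA RNA SNORA21 (0.994), the 7SL pseudogene RN7SL5P (0.994) and MKS1 (0.993). All 5 separated the groups, and the 6 libraries form 2 groups, so these values are given as a description. RN7SL5P measured 31.1, 15 and 17.9 RPKM in the D391N libraries and 44.6, 43.4 and 42.7 RPKM in the controls, and copies of 7SL can share reads.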

How the data were processed

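Total RNA was depleted of ribosomal RNA, made into libraries with ScriptSeq and sequenced as 50-nt single reads on an Illumina HiSeq2000, with 3 libraries in a lane. Per the study's methods, reads were trimmed with cutadapt and aligned to Ensembl transcripts of hg38 with Segemehl, and transcript levels were estimated with BitSeq. The table the authors deposited gives for each of 207167 transcripts a posterior mean level per library, as natural log RPKM. The deposited posterior variance of the natural log level stands beside it and was used for estimation error, for relative depth and for an alternative level. Versions of these tools are not given in the sources used here, and no counts were used, so the depth is known only relative to one library.

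RPKM was taken as the exponential of the mean and summed over the transcripts of each gene identifier. Names came from reference tables for 88.5% of identifiers, and from the study's supplementary sheet for RN7SL1. Levels were compared as log2(RPKM + 0.1), a scale that understates changes of low genes, with limma 3.58.1 in R 4.3.3 (trended empirical Bayes, Benjamini-Hochberg adjustment) over every gene or transcript whose mean reached 1 RPKM. The unit differs from a count, so no count test was run. In simulated data on 20714 genes for this comparison, the test called 46% of genes given a log2 change of 1.5 and 82% of those given 3. The simulated noise was independent between genes and of equal spread in both groups, without a library that stands apart. These shares are averages over genes and do not give the power for the members. Biotypes came from GENCODE v44 lifted to GRCh37. The sequences of the 7SL genes are not reported here. GRCh38 positions came from RefSeq (GRCh38.p14). The 8 members and all lists were chosen with earlier results of these data known. Named genes were the members and their transcripts, DIS3L2, the 3 most abundant genes of each fixed list, any list gene called, and the 5 genes most like the 7SL sum. Alternatives covered the pseudocount, scaling, level estimate, filter, trend, replicate block, single libraries, the copies summed and the protein transcripts used.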

Additional observations from a re-analysis of the deposited data

How the results depend on the processing

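With all libraries 29 genes and 33 transcripts passed. The gene count was 61 with a pseudocount of 1, 16 with a pseudocount of 0.01, 14 after median centring, 17 after quantile normalization, 6 with a minimum mean of 5 RPKM and 18 with no filter. The transcript count was 142 with a pseudocount of 1, 17 with a minimum mean of 5 RPKM, 18 with no filter and 52 without the trend. Leaving out 1 library gave 2 to 2261 genes and 2 to 4961 transcripts, the highest of both without D391N replicate 1.

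Over the data as a whole, replicate numbers did not pair the libraries (correlations of same-numbered deviations 0.087, 0.055 and -0.11). Replicate 1 was highest and replicate 2 lowest in both groups for RNY1, RNY3, RNY4, VTRNA1-1 and VTRNA1-2, all RNA polymerase III RNAs. This did not hold for RN7SK, RMRP and VTRNA1-3. Adding the replicate block to the test lowered the SE of RNY1 from 0.95 to 0.57 and of RNY3 from 1.04 to 0.67. It raised the SE of RN7SK (0.61 to 0.76), RN7SL1 (0.64 to 0.88) and RN7SL2 (0.56 to 0.73). With the replicate block 2 genes and 7 transcripts passed, and no member did.

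Median centring moved the median of all genes from -0.09 to 0.13 and the SRP protein mean difference to 0.39. Quantile normalization gave -0.079 for the 7SL sum and -0.35 for 7SL minus SRP proteins. The other alternatives kept these 3 differences within 1 SD between replicates, with ranges of -1.37 to -0.079, 0.041 to 0.39 and -1.62 to -0.35 over all of them. The cause was not tested.

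Signs turned as follows. Median centring gave SRP14 0.19, SRP54 0.21, SEC11A 0.11, RPN2 0.094 and NACA 0.19. Quantile normalization gave RN7SL1 0.038, SRP14 0.25, NACA 0.47, BTF3 0.085, SRP14 ENST00000560773 0.17 and SRP68 ENST00000539137 -0.04. The log-normal mean gave SRP54 0.0072. Leaving out single libraries gave ranges that crossed 0 for SRP14 (-0.18 to 0.17), SRP54 (-0.10 to 0.13), SRP68 (-0.087 to 0.16), SEC11A (-0.27 to 0.011), NACA (-0.25 to 0.089), SRP14 ENST00000560773 (-0.41 to 0.28), SRP68 ENST00000539137 (-0.23 to 0.31) and SRP72 ENST00000510663 (-0.036 to 0.24). Adding RN7SL3 to the 7SL sum was not run, since no identifier in the table matched it. Depth is known only as a relative value, 0.621 to 1, and its effect on the calls was not tested.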
